A study of Saccharomyces cerevisiae with 40 samples.

Results

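The comparison described here is the difference between 2 responses to arsenite (AsIII) in the budding yeast Saccharomyces cerevisiae, that of a strain without the gene CAD1 and that of its parent. It was formed for each of 5598 genes as the mean of the 2 arrays of cad1Δ cells minus the mean of the 4 arrays of parent cells, which are 6 of the 40 samples of the series. Cad1, also called Yap2, belongs to the Yap family of bZIP transcription factors. Its DNA-binding domain is nearly that of Yap1, the factor that switches on antioxidant genes when its cysteines are modified, and Cad1 itself is known from resistance to cadmium. Yap factors bind short sites in the promoters of genes for drug pumps, thioredoxin, glutathione and old yellow enzymes, and many sites can be bound by more than 1 of them. The question behind the strains was which of Cad1 and Yap1 is the more active in the response to arsenic.

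The parent was BY4741, a MATa haploid in which HIS3, LEU2, URA3 and MET15 (listed here as MET17) are deleted. The cad1Δ strain is a deletion strain of the same background and carries those 4 deletions as well. For each strain a culture was split, 1 part received 100 μM sodium arsenite for 2 h, and the RNA of the treated part was hybridised against that of the untreated part on Agilent oligonucleotide arrays. A response is therefore the log2 ratio of treated over untreated cells of the same strain. The 2 cad1Δ arrays are 1 pair with exchanged dyes, and the 4 parent arrays, 2 in each dye orientation, were averaged as 2 such pairs (arrays 1 and 2, arrays 3 and 4). That pairing was taken from the array numbers and is not stated in the labels, and pairing 1 with 4 and 3 with 2 gave 240 calls in the difference in place of 237. A further pair of arrays compared untreated cad1Δ cells with untreated parent cells, and 1 pair measured the response of yap1Δ cells at the same dose and time. Nothing in the labels says whether the 2 parent pairs came from separate cultures. The p-values below thus measure the spread between these 2 pairs, which may be technical, and the spread between cad1Δ cultures was not measured.

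Deletion of CAD1 was visible in the arrays. The signal for CAD1 (YDR423C) in untreated cad1Δ cells was below that in untreated parent cells by a log2 ratio of -3.94 on array 1 and -5.57 on array 2. Its neighbours SIP1 and DYN2 were not called in that comparison, with log2 ratios of -0.07 and -0.20. The array medians of the 6 AsIII arrays lay between -0.11 and -0.06, so no array was shifted as a whole. Across genes the 2 cad1Δ arrays correlated at r = 0.925, the parent pairs at 0.926 and 0.885, and the mean responses of the 2 parent pairs at 0.97 (genes are not independent replicates). The 2 arrays of untreated cad1Δ against untreated parent cells did not correlate positively, with r = -0.137 across genes. HIS3, LEU2, URA3 and MET17 were not called in the difference, with values of 0.59, -0.17, -0.14 and 0.28. In the response itself 3 of these 4 were called induced in cad1Δ cells, HIS3 (0.63), LEU2 (0.39) and URA3 (0.54). In the parent 2 were, LEU2 (0.56) and URA3 (0.68). HIS3 was 1.25 on cad1Δ array 1 and exactly 0 on array 2, so its call and its difference rest on array 1. All 4 are deleted in both strains, so a called response need not be that of the gene's own transcript. The cause was not tested.

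Across genes the mean AsIII responses with and without Cad1 correlated at r = 0.957, with a median absolute difference of 0.165 on the log2 scale. In cad1Δ cells 1787 genes were induced (31.9% of the genes tested) and 2017 repressed (36%), in all 68% at an adjusted p under 0.05 by limma. In the parent 1940 were induced (34.7%) and 2393 repressed (42.7%), in all 77.4%, with 4 arrays and a standard error of 0.12 against 0.17 for the 2 arrays of cad1Δ. The difference between the 2 responses passed the test in 237 genes (4.23%), of which 98 responded higher (1.75%) and 139 lower (2.48%) in cad1Δ cells. Of these, 52 differed by at least 2-fold, 14 of them higher and 38 lower. A difference carries a standard error of 0.21 on the log2 scale, the same for every gene, because the fitted spread was shared by all genes.

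**Figure D1:**
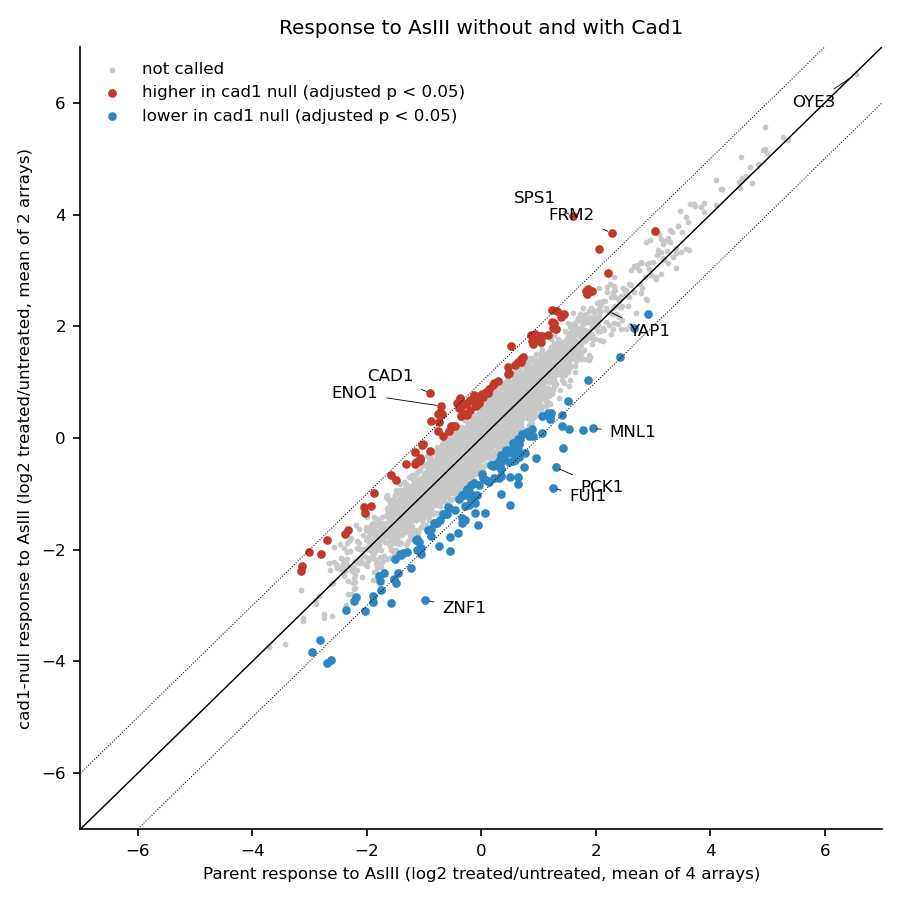
Each point is 1 of 5598 genes, with the mean response of the parent (4 arrays) on the x axis and that of cad1Δ cells (2 arrays) on the y axis, both as log2 treated/untreated. The solid line marks equal responses and the dotted lines a 2-fold difference. Red points are the 98 genes called higher and blue points the 139 called lower, and OYE3 and YAP1 lie on the line.

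These counts rested on the parent arrays. The cad1Δ response was at least 2-fold apart from parent pair 1 in 107 genes and from parent pair 2 in 33, while the 2 parent pairs were 2-fold apart from each other in 29. Among the 139 lower genes, 14 were 2-fold apart between the parent pairs, and in the 98 higher genes 1 was. Counting only genes that differed by 2-fold or more in the same direction against each parent pair left 23, of which 6 were higher (SPS1, CAD1, FRM2, ENO1, PRM1 and PFF1) and 17 lower. When an array was left out, its pair kept 1 dye orientation only, and the count became 7 without parent array 1, 0 without array 2 (702 genes have an unadjusted p under 0.05 with all arrays), 4 without array 3 and 91 without array 4. Without parent array 2, therefore, none of the cad1Δ minus parent differences named below was called. The count was 686 without cad1Δ array 1 and 277 without array 2. With no model of the spread, the 2 cad1Δ arrays lay outside the range of the 4 parent arrays in 1110 genes (19.8%), above it in 681 (12.2%) and below it in 429 (7.66%), and in 42 genes (0.75%) they did so with a difference of at least 2-fold. An exact permutation test of 2 arrays against 4 could not go below p = 0.0667.

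The 12 genes with the largest higher response were SPS1, CAD1 itself, FRM2, ENO1, ENO2, TDH1, DYN1, PRM1, SCW10, ABP140, PFF1 and TDH3. SPS1 (YDR523C), a protein kinase of spore wall formation, had the largest difference. Its response was 3.82 and 4.14 on the cad1Δ arrays and 1.57, 1.41, 2.05 and 1.36 on the parent arrays. Both cad1Δ values lay above all 4 parent values, and the difference of 2.38 (95% interval 1.97 to 2.80, adjusted p = 1.06e-25 by limma) is 5.22-fold. Without parent array 2 the difference of SPS1 was 2.35 with an adjusted p of 0.228 by limma. SPS1 was called in 16 of 17 alternative settings.

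The ratio printed for CAD1 in the deletion strain is not that of a CAD1 transcript, since the gene is absent there. It was 0.86 and 0.75 on the cad1Δ arrays. In the parent, where the gene is present, CAD1 had values of -0.72, -1.05, -0.69 and -1.11 after AsIII. CAD1 was thus below its untreated level on all 4 parent arrays, with a mean of -0.89, and in yap1Δ cells the ratio was -0.84. The difference of 1.70 for CAD1 is therefore not a response of the gene in cad1Δ cells.

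FRM2 (YCL026C-A), a nitroreductase-like protein of the oxidative stress response, was induced more strongly without Cad1. Its response was 3.49 and 3.86 in cad1Δ cells and 2.095, 2.13, 2.33 and 2.56 in the parent. The groups did not overlap, and the difference of 1.395 (95% interval 0.98 to 1.81, adjusted p = 1.46e-08 by limma) is 2.63-fold. FRM2 was low in untreated cad1Δ cells, with log2 ratios to the untreated parent of -1.96 and -2.13 on the 2 arrays. The sum of that ratio and the difference in response, which estimates treated cad1Δ over treated parent cells, was -0.65 (SE 0.27, adjusted p = 0.646 by limma). In yap1Δ cells FRM2 responded by 0.51 only, lower than in cad1Δ cells by a log2 of 3.16.

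The next genes encode 2 steps of lower glycolysis. ENO1 and ENO2 are the enolases and TDH1 and TDH3 are glyceraldehyde-3-phosphate dehydrogenases, and members of each pair are so alike in sequence that their probes can share RNA. ENO1 was 0.89 and 0.26 on the cad1Δ arrays and -1.23, -0.57, -0.58 and -0.44 on the parent arrays. ENO1 was thus below 0 on every parent array and above 0 on both cad1Δ arrays, with a difference of 1.28 (adjusted p = 3.08e-07 by limma). ENO2 differed by 1.195, TDH1 by 1.19 and TDH3 by 1.05. In the remaining deletion strains ENO1 stood at 0.36 in yap1Δ, 0.64 in rpn4Δ and -0.83 in arr1Δ cells.

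DYN1, the heavy chain of cytoplasmic dynein, passed the rule but its arrays followed the dye. It was -1.15 and 1.76 on the cad1Δ arrays and -1.91, -0.47, -2.21 and 1.11 on the parent arrays, so the groups overlapped. Without cad1Δ array 2 its difference of 1.18 turned to -0.28. PRM1, a membrane protein of cell fusion in mating, was 1.395 and 1.92 against 0.37 to 0.75 in the parent. SCW10, a cell wall protein, was 0.43 and 0.44 against -0.84 to -0.47 in the parent. ABP140, a tRNA methyltransferase that binds actin, differed by 1.08, and PFF1, a protease of the vacuole membrane, by 1.06, neither with overlap between the groups.

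The 12 genes with the largest lower response were FUI1, ZNF1, PCK1, MNL1, ERG29, CGR1, GAL7, HAB1, GNP1, YBL029W, SPG1 and UTP6. In none of them did the 2 cad1Δ arrays overlap the 4 parent arrays, beside 7.66% of all genes with cad1Δ below. Both sets of 12 were chosen on these same 6 arrays, so a lack of overlap is no separate support for them. FUI1, the uridine permease, was -0.74 and -1.06 in cad1Δ cells and 1.68, 1.63, 1.03 and 0.64 in the parent. FUI1 was above 0 on every parent array and below 0 on both cad1Δ arrays, a difference of -2.15 (95% interval -2.56 to -1.73, adjusted p = 9.31e-21 by limma). ZNF1, a zinc cluster transcription factor of respiratory growth, was below 0 on every array of both strains, with values of -2.46 and -3.34 in cad1Δ cells and -0.92, -0.46, -1.41 and -1.11 in the parent. PCK1, the phosphoenolpyruvate carboxykinase of gluconeogenesis, was -0.33 and -0.72 against 1.70, 1.52, 1.46 and 0.51.

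Several of these genes were above 0 on all 4 parent arrays and nearer to 0 in cad1Δ cells. MNL1, an alpha-mannosidase-like protein that marks misfolded glycoproteins in the endoplasmic reticulum, was 0.44 and -0.09 on the cad1Δ arrays and 2.39, 1.99, 2.24 and 1.17 on the parent arrays. CGR1, a nucleolar protein of rRNA processing, was 0.25 and 0.03 against 2.11, 1.65, 2.03 and 1.28. GAL7, the uridyl transferase of galactose use, was -0.20 and -0.17 against 0.74 to 2.06. UTP6, a subunit of the complex that matures the small ribosomal subunit, was 0.21 and 0.11 against 0.74 to 2.205. In yap1Δ cells, on arrays that these comparisons with the parent do not use, MNL1 was 1.75, CGR1 1.96, GAL7 1.25 and UTP6 1.56. FUI1 was 0.75, PCK1 0.90, ERG29 0.11 and GNP1 0.22 there. ZNF1 was -2.05, HAB1 -1.08, SPG1 -2.65 and YBL029W -0.64, below the parent means of -0.98, -0.05, -1.58 and 0.06. Among the higher genes, SPS1 was 4.32 and PFF1 2.77 in yap1Δ cells, above the parent means of 1.597 and 1.24. ENO2 was 0.60, PRM1 1.298, SCW10 0.09 and ABP140 0.19, above the parent means of -0.72, 0.52, -0.69 and -0.37. In yap1Δ minus parent, SPS1, ENO1, ENO2, DYN1, PRM1, SCW10, PFF1 and TDH3 were called higher as well. CAD1, TDH1 and ABP140 were not called there, and FRM2 was called lower. Of the 12 higher genes only CAD1 and FRM2 were called in cad1Δ minus yap1Δ. These genes were chosen on the cad1Δ and parent arrays, so the yap1Δ values are a description.

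For part of the lower genes the size depended on which parent pair was used. ERG29, which acts in sterol synthesis, was -1.003 and -1.38 in cad1Δ cells and 1.29, 1.16, -0.15 and -0.28 in the parent, so its difference was -2.42 against pair 1 and -0.98 against pair 2. FUI1 differed by -2.55 and -1.74, UTP6 by -1.82 and -0.92, and MAK16, a protein of large ribosomal subunit assembly, by -1.83 and -0.54. CGR1 was steadier at -1.75 and -1.52, as was HAB1 at -1.58 and -1.45. YBL029W was 1.23 on parent array 1 and between -0.42 and -0.19 on the other 3, and its difference was -1.05 without array 1 (adjusted p = 0.217 by limma). Where a named gene that was called had several probes, all of its probes had the same sign, in 34 of 34 such genes. The calls were made on the mean of these same probes, so the shared sign is no separate support for them.

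**Figure D2:**
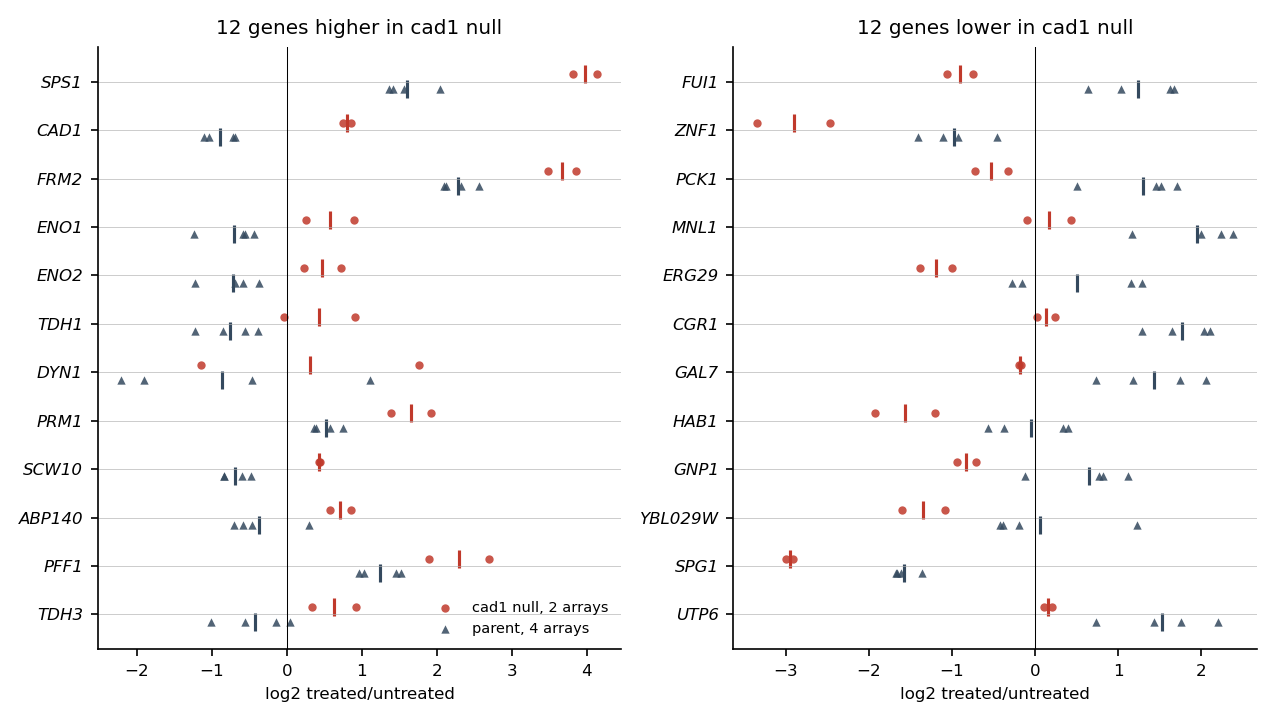
Log2 treated/untreated for the 12 genes with the largest higher (left) and lower (right) response in cad1Δ cells. Circles are the 2 cad1Δ arrays, triangles the 4 parent arrays, and vertical ticks the group means. DYN1 overlaps between the groups, and the 4 parent values of ERG29 fall into its 2 pairs.

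Most targets of Yap1 gave no call in the difference between cad1Δ and parent. Among 24 antioxidant targets, 20 were induced and 1 repressed in cad1Δ cells, beside 31.9% and 36% of all genes. In the parent 18 were induced and 1 repressed, beside 34.7% and 42.7% of all genes. The median response was 2.03 in cad1Δ, 2.05 in the parent and -0.33 in yap1Δ cells. OYE3, an old yellow enzyme, was at 6.64 and 6.38 in cad1Δ cells and between 6.36 and 6.64 in the parent, at or near the limit of the deposited scale, so its difference of -0.03 has little room to show a change. AAD4, an aryl-alcohol dehydrogenase, was 4.79 and 5.02 in cad1Δ cells against 4.73 to 4.97 in the parent. OSI1, induced by oxidative stress, was 4.95 and 4.41 against 4.32 to 4.98, and GPX2, a glutathione peroxidase-like enzyme, 4.19 and 3.89 against 3.81 to 4.04.

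The difference between cad1Δ and parent was called in 3 of the 24, with GTT2 (0.73) and YCF1 (0.70) higher and TRX2 (-0.70) lower, beside 4.23% of all genes. Their median difference was 0.13 beside 0.05 over all genes. For the other 21 the 95% interval of the difference excluded a 2-fold change in either direction, as it did for 5286 of all 5598 genes. The width of these intervals comes from the 2 parent pairs and holds no spread between cad1Δ cultures. For OYE3, at the limit of the scale, the interval has no meaning. GTT2, a glutathione S-transferase, was 2.70 and 3.198 against 1.94 to 2.67, without overlap. YCF1, the vacuolar pump that takes up glutathione conjugates including that of arsenite, was 0.64 and 0.82 against -0.05, -0.05, -0.04 and 0.25. TRX2, a cytosolic thioredoxin, was 2.69 on cad1Δ array 1 and 1.24 on array 2 against 2.38 to 2.85, and without array 2 its difference was 0.02. Without cad1Δ array 2 the values for GTT2 and YCF1 were 0.49 and 0.61, neither called. With any 1 of the 4 parent arrays left out, none of the 24 was called. Of the 24, 6 were called higher and 3 lower without cad1Δ array 1.

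The cad1Δ response was higher than the yap1Δ response in 322 genes (5.75%) and lower in 166 (2.97%), in all 8.72%. The values of this contrast come from no parent array, but its error does, since the 2 parent pairs give all the residual spread. Of the 24 Yap1 targets 20 were called higher and none lower, with a median of 2.3, and the exceptions were AHP1, AAD14, ZWF1 and MCR1 at 0.42, 0.39, 0.30 and -0.46. With 1 parent array left out, 106 to 260 genes were called, among them 17 or 18 of the targets, all higher. Apart from OYE3 the largest were OSI1 at 5.71, AAD4 at 5.26, GPX2 at 4.35 and FLR1, a drug pump, at 3.95. For OYE3, at the limit on cad1Δ array 1, the value of 4.06 is a lower bound. AAD4 was -0.35 in yap1Δ cells against a mean of 4.90 in cad1Δ cells, and GPX2 was -0.31.

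**Figure D3:**
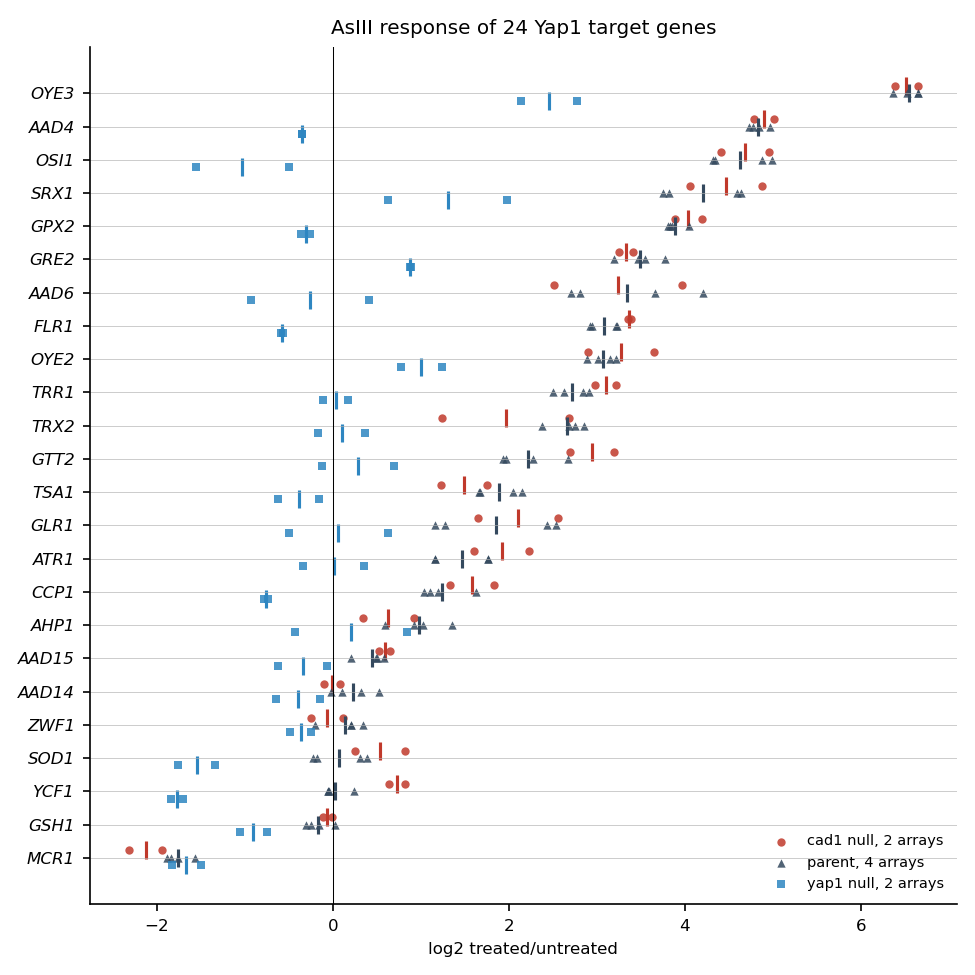
Log2 treated/untreated of 24 Yap1 target genes, ordered by the mean of the parent. Circles are the 2 cad1Δ arrays, triangles the 4 parent arrays, squares the 2 yap1Δ arrays and vertical ticks the means. cad1Δ and parent values lie together for most genes, while both yap1Δ values lie below all of them in every gene but MCR1 and AHP1.

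The response of YAP1 mRNA was 2.28 and 2.27 in cad1Δ cells and 2.09 to 2.299 in the parent. Apart from CAD1, none of the 8 Yap family genes was called in the difference, beside 4.23% of all genes. CIN5 (Yap4) was at 2.02 in cad1Δ and 2.04 in parent cells, and YAP7 at 3.02 and 2.75. RPN4, the activator of proteasome genes, was 2.2 and 1.87 against 1.72 to 2.17. The 32 proteasome genes gave no call, beside 4.23% of all genes, and a median difference of 0.04. Their 95% intervals excluded a 2-fold change in all 32, as did those of 5286 of all 5598 genes. Without cad1Δ array 1 the median of the proteasome list was 0.21 with 4 higher calls, and without array 2 it was -0.07 with none.

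Of the genes for arsenic detoxification, ARR2, the arsenate reductase, was 2.27 and 2.45 in cad1Δ cells against 2.405 to 2.75 in the parent, and ARR3, the arsenite exporter, was 1.26 and 2.01 against 0.81 to 1.76. Their differences of -0.21 and 0.41 were not called, with 95% intervals of -0.62 to 0.20 and -0.0017 to 0.82. ARR1, their activator, differed by -0.04 and FPS1, the glycerol channel through which arsenite enters, by -0.29, neither called. In the list of 7 genes linked to Cad1 in the literature, FRM2 and YCF1 were called higher and none lower, beside 1.75% and 2.48% of all genes. Without cad1Δ array 1, 4 were higher and the median was 0.70, without array 2, 1 was higher and the median was 0.16, and without parent array 1, 2 or 3 none was called. Without parent array 4, 1 was. The others were ATR1 (0.46), FLR1 (0.29), GLR1 (0.25), GSH1 (0.11) and PDR5 (0.02). All 7 lay above 0, where 3278 of the 5598 genes did. Apart from FRM2 and PDR5 these genes are also among the 24 Yap1 targets above, so YCF1 is counted in both lists. In yap1Δ minus parent all 7 were called lower, beside 7.36% of all genes. In cad1Δ minus yap1Δ all 7 were called higher, beside 5.75% of all genes.

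Genes of sulfate assimilation and methionine synthesis gave 7 higher calls and 1 lower among 32, beside 1.75% and 2.48% of all genes, with a median difference of 0.26. The higher ones were MHT1 (0.98), MET3 (0.91), MET22 (0.85), MET16 (0.80), MET8 (0.78), SAM2 (0.75) and MET5 (0.74), and the lower one was MET12 (-0.65). MET3, the ATP sulfurylase that opens the pathway, was 1.75 and 1.97 in cad1Δ cells and 0.56, 1.09, 0.88 and 1.25 in the parent. Its groups did not overlap. MHT1, a methyltransferase that recycles S-methylmethionine, was 1.60 and 2.096 against 0.63 to 1.303. In untreated cells 5 of the 32 were called lower in cad1Δ than in the parent and none higher, beside 0.965% and 1.71% of all genes. These were MET3 (-0.67), MET16 (-0.68), MET5 (-0.63), MET22 (-0.57) and CYS3 (-0.72). The 2 untreated arrays correlated at r = -0.137 across genes, and their disagreement did not enter the p-values. The sum of untreated ratio and response difference was called for none of the 32, beside 0.947% of all genes, with a median of 0.04. Each of parent arrays 1, 2 and 3 left out took the calls of this list to 0 higher and 0 lower, and array 4 to 4 higher. Without cad1Δ array 2 the list had 5 higher calls. In yap1Δ minus parent, which shares the 4 parent arrays, 7 of the 32 were called higher and 2 lower. That stands beside 5.39% and 7.36% of all genes, and the median was 0.23.

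Enzymes of glycolysis and fermentation were put into a list after their values had been seen, so their count is a description. Of 21 enzymes 12 were called higher in cad1Δ cells and none lower, beside 1.75% of all genes, and all 21 had a difference above 0, from 0.03 (PYK2) to 1.28 (ENO1), with a median of 0.70. In the parent 18 of the 21 were repressed by AsIII, with a median of -1.16, beside 42.7% of all genes. In cad1Δ cells 11 were, with a median of -0.43, beside 36% of all genes. CDC19, the pyruvate kinase, was 0.02 and -1.34 in cad1Δ cells and -1.26, -2.43, -0.65 and -1.95 in the parent, so its groups overlapped, and TPI1, the triose phosphate isomerase, was 0.22 and -0.72 against -1.38 to -0.99. The contrast of yap1Δ with the parent shares the same 4 parent arrays. There 302 of all genes were higher (5.39%) and 412 lower (7.36%), in all 12.8%, and 16 of the 21 enzymes were higher. Between cad1Δ and yap1Δ none was higher and 2 were lower, PYK2 and ADH1. Without cad1Δ array 1, 6 of the 21 were called, and without parent array 1, 2 or 3 none was. Without parent array 4, 5 were called, and with each array as a replicate 0.

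Some abundant transcripts carried a repeated ratio on the cad1Δ arrays. On array 1, 27 probes of 20 genes held 1 log2 ratio of 0.92 to within 2e-06 on the log10 scale. On array 2, 13 probes of 10 genes held 0.34. None of the 4 parent arrays had such a value apart from exact zeros. Among these genes were TDH3 and PGK1 of the glycolysis list, SSA1, SSA2, HSP26 and HSP42 of the chaperones, AHP1, CUP1-1 and CUP1-2, and 3 of the 22 were called, all higher (TDH3, TEF1 and TEF2). A ratio held by so many genes is not a separate measurement of each, so the differences of TDH3 (1.05), TEF1 (0.67), TEF2 (0.74), PGK1 (0.45) and AHP1 (-0.35) may not be those of the genes themselves. Intensities were not used here, and the part of these repeated values in the results was not tested beyond leaving them out. An exact 0 was not counted as a repeated ratio. It was held by 9 probes on cad1Δ array 2, 5 on parent array 2 and 15 on parent array 4. With all genes left out that had a repeated ratio or an exact 0 on the 6 arrays (42 genes), 229 genes were called and 11 of the 19 remaining glycolysis enzymes.

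Chaperone genes under Hsf1 gave 3 higher calls among 26, for the Hsp40 proteins YDJ1 (0.78) and SIS1 (0.66) and the exchange factor FES1 (0.72), with a median of 0.29, beside 1.75% of all genes. Without parent array 1, 2 or 3 none was called and without array 4 1 was. Without cad1Δ array 1, 6 were higher and 1 lower, and without array 2, 6 were higher. YDJ1 was 2.03 and 2.31 in cad1Δ cells and 0.99, 1.63, 1.17 and 1.76 in the parent. In yap1Δ minus parent 5 of the 26 chaperone genes were called higher and none lower, with a median of 0.44, beside 5.39% and 7.36% of all genes. A list of 20 genes that Msn2 and Msn4 switch on in stress was mostly repressed by AsIII. In the parent 17 were (median -1.41) and in cad1Δ cells 16 (median -1.62), beside 42.7% and 36% of all genes. A higher difference in this list thus need not mean induction. In the difference 2 were higher (HXK1 at 0.89 and DDR2 at 0.69) and 4 lower (GSY1, GAC1, CTT1 and SOL4, from -0.71 to -0.65). That stands beside 1.75% and 2.48% of all genes, and the median was 0.06. In untreated cad1Δ cells 7 of the 20 were called higher and none lower, beside 1.71% and 0.965% of all genes. The median untreated ratio was 0.38, and CTT1 (1.05), SOL4 (0.97) and GAC1 (0.82) were among those higher. The sum of untreated ratio and response difference was called higher in 3 and lower in none, beside 0.339% and 0.607% of all genes. In yap1Δ minus parent 4 of the 20 were called higher and 2 lower, beside 5.39% and 7.36% of all genes. Without cad1Δ array 1 the difference of DDR2 turned to -0.21 and that of HXK1 was 0.34, and the list had 0 higher and 7 lower calls. Without cad1Δ array 2 it had 7 higher and 1 lower.

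The hexose transporters differed in direction. Of 16, 3 were called higher and 1 lower, beside 1.75% and 2.48% of all genes. HXT2, of high affinity, was -3.67 and -4.28 in cad1Δ cells and -2.20, -2.28, -3.04 and -2.96 in the parent, a difference of -1.36. HXT6 (0.84), HXT3 (0.77) and HXT7 (0.73) were called higher, each with overlap between the groups, and HXT6 turned to -0.19 without cad1Δ array 1. HXT6 and HXT7 are near-identical copies whose probes cannot tell them apart. In yap1Δ minus parent 3 of the 16 transporters were called higher and 3 lower, beside 5.39% and 7.36% of all genes. Both HXT2 (-1.69) and HXT6 (0.77) were called there, in the same directions. The phosphate transporters PHO84 (-0.77) and PHO89 (-0.79) were called lower among 18 genes of phosphate uptake, beside 2.48% of all genes. PHO84 was 0.02 and -0.24 in cad1Δ cells against 0.44 to 0.79 in the parent. In yap1Δ minus parent 4 of the 18 were called lower and none higher, beside 7.36% and 5.39% of all genes. PHO84 (-0.69) and PHO89 (-0.59) were among those lower. Iron uptake gave 1 call of 18, FET3 (0.70), and copper and zinc genes none of 10, beside 4.23% of all genes.

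In the mating list, PRM1, SST2 (0.74) and AGA1 (0.72) were called higher and STE18 (-0.99) lower among 20, beside 1.75% and 2.48% of all genes, with a median of 0.28. Without cad1Δ array 1 the mating list had 1 higher and 4 lower calls and a median of 0.13, and without array 2 it had 6 higher, 0 lower and a median of 0.40. Without parent array 1, 2 or 3 it had none, and without array 4 1 each way. In yap1Δ minus parent 3 of the 20 were called higher and 3 lower, beside 5.39% and 7.36% of all genes. Of the MATa genes BAR1 was lower in untreated cad1Δ cells (-0.92), and STE2, AGA2, MFA1 and MFA2 were not called there or in the difference. STE18, the gamma subunit of the G protein, followed the dye, with -0.62 and -1.78 in cad1Δ cells and 0.39, -0.24, 0.16 and -1.15 in the parent. CLN3 (-0.79) was the 1 cyclin of 12 that was called, beside 4.23% of all genes. CLN3 was -0.19 and -0.36 in cad1Δ cells against 0.26 to 0.89 in the parent. Among 30 ribosome biogenesis genes MAK16 (-1.18) was called lower and none higher, beside 2.48% and 1.75% of all genes. The median of that list was 0.15. Of 13 genes of glutathione synthesis and use, GTT2 was higher and GPX1 (-0.74), a glutathione peroxidase, lower, beside 1.75% and 2.48% of all genes.

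**Figure D4:**
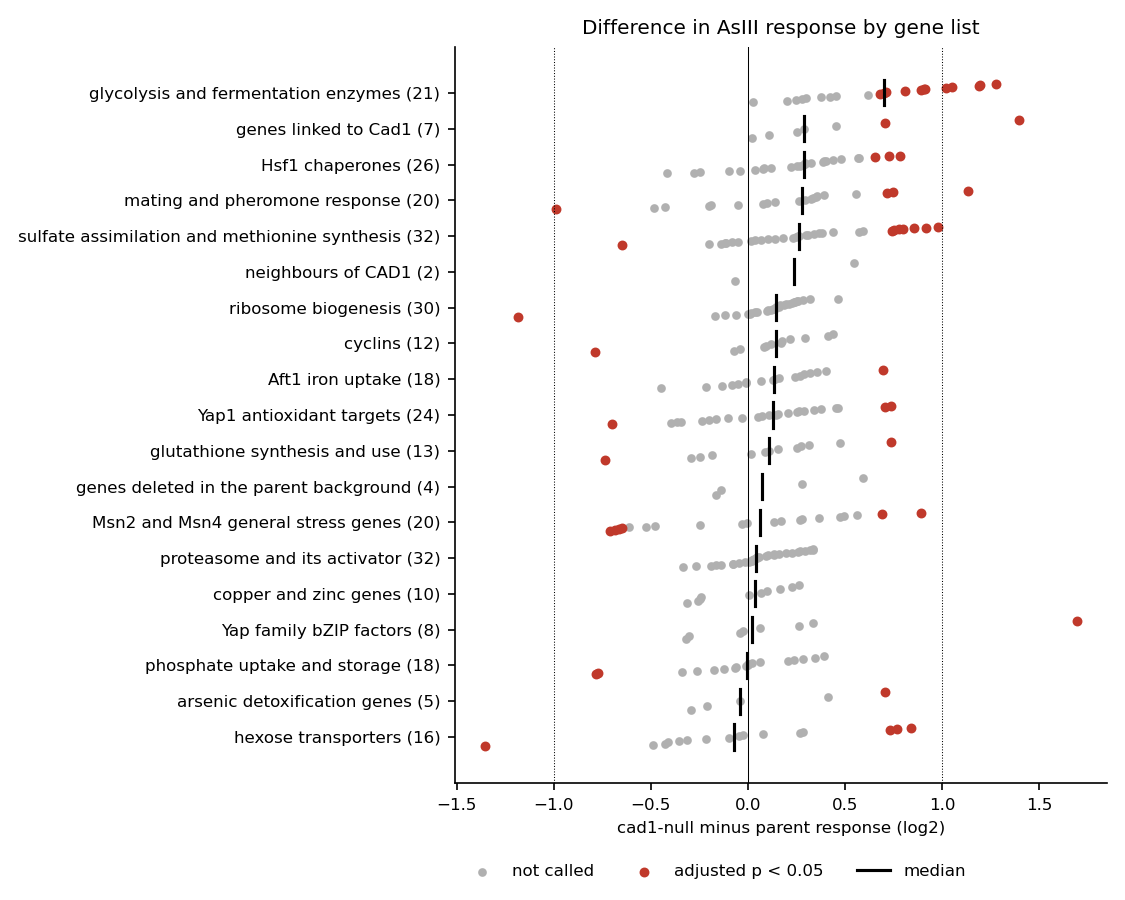
Difference in response (cad1Δ minus parent, log2) of the members of each gene list, with the number of members in brackets. Red points were called, grey points were not, black bars are medians, and dotted lines mark a 2-fold difference. The glycolysis list, chosen after its values were seen, has the highest median (0.70), and the Yap1 targets lie around 0.13.

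Before AsIII a difference between the 2 strains was called in 150 genes (2.68%), of which 96 were higher (1.71%) and 54 lower (0.965%) in cad1Δ cells. The calls used the mean of the 2 untreated arrays (r = -0.137 across genes) and an error from the parent AsIII pairs. Disagreement between the untreated arrays thus did not enter the p-values, and calling on their mean favoured a shared sign. Of the 150 genes called, 147 had the same sign on both arrays, as did 2106 of the 5598 genes. The count was 649 or 755 with 1 untreated array left out and 1 (without parent array 2) to 54 with 1 parent array left out. After CAD1, FRM2 (-2.05) and SPS1 (-1.17) were the lowest. SPS1 was -0.70 and -1.64 on the 2 untreated arrays, and its sum with the response difference was 1.22 (adjusted p = 0.00156 by limma). PHO84 (1.71) and SPG1 (1.41), a gene named for stationary phase, were among the higher. The response of SPG1 was -2.91 and -2.99 in cad1Δ cells and between -1.67 and -1.36 in the parent, a difference of -1.38. Its sum was 0.03. In SCW10 (-0.79), SST2 (-0.71), PRM1 (-0.58), HXT2 (0.82), PHO89 (0.83) and HAB1 (0.70) too the untreated ratio and the difference in response had opposite signs. Both measures contain untreated cad1Δ cells, and whether they used the same RNA is not given in the sources used here, so the relation was not tested.

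The sum was called in 53 genes (0.947%), 19 higher (0.339%) and 34 lower (0.607%). With 1 parent array left out it was called in 1 gene without array 1 or 3, in none without array 2 (251 genes had an unadjusted p under 0.05 with all arrays, by limma) and in 28 without array 4, and with untreated array 1 or 2 left out in 202 or 88. Among the higher were ENO1 (1.73), ENO2 (1.43), HXT6 (1.39), TDH1 (1.36) and HXK1 (1.21). Among the lower, below CAD1, were FUI1 (-2.09), MNL1 (-1.77), ERG29 (-1.72), CGR1 (-1.69) and UTP6 (-1.66), whose untreated ratios lay between -0.28 and 0.06. For these genes the sum was close to the difference in response. Repeated ratios also occurred on the untreated arrays, with 11 probes at 0.273 on array 1 and 9 at -0.0011 on array 2. TDH1 was at 0.273 on untreated array 1, so its sum may not be that of the gene itself.

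**Figure D5:**
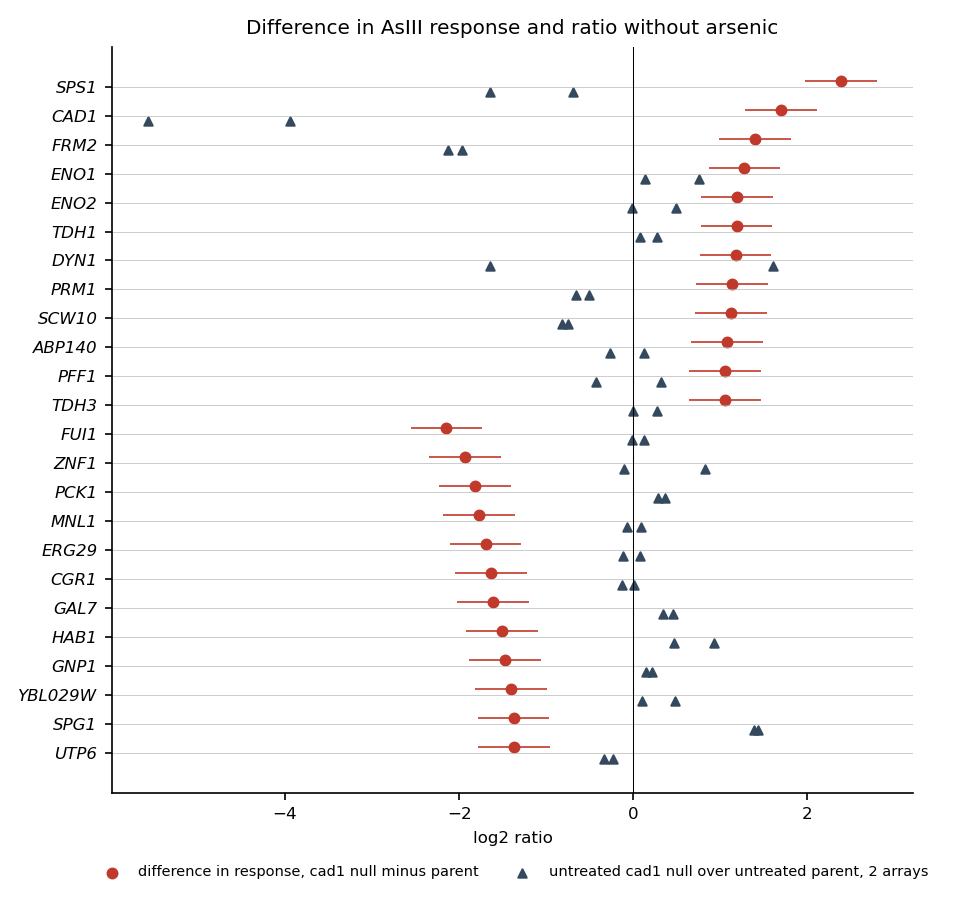
For the 24 genes with the largest differences, circles give the difference in response (cad1Δ minus parent, log2) with its 95% interval, and triangles the 2 arrays of untreated cad1Δ over untreated parent cells (log2). SPS1, CAD1, FRM2, PRM1 and SCW10 have untreated ratios below 0 and SPG1 above 1, while those of MNL1, ERG29 and CGR1 lie near 0.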

How the data were processed

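The authors hybridised pairs of RNA samples to Agilent 2-colour arrays, with exchanged dyes on the second array of a pair, and extracted ratios with Feature Extraction and Rosetta Resolver. The deposited values are log10 ratios, with the sign set so that treated cells, or the deletion strain, are the numerator, and limited to 100-fold. They were multiplied into log2 ratios. All columns were used (0 left out), and only the Agilent arrays entered. Of 10807 probes, 9202 name 1 gene and 1605 none. Probes of a gene were averaged (3588 of 5598 genes have several), and 5593 genes matched RefSeq.

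Arrays of a dye pair were averaged into 1 replicate, which gave 10 replicates in 9 groups from 20 arrays. limma 3.58.1 in R 4.3.3 (lmFit, eBayes, two-sided, Benjamini-Hochberg over all genes, adjusted p under 0.05) had 1 residual degree of freedom, from the 2 parent pairs, and an infinite prior with an SD of 0.172. The number of arrays limits the precision. The test was tried on simulated data first. Genes were named where they were called with 1 sign on every pairing of cad1Δ and parent arrays of the same dye (the 12 largest each way), with fixed genes, all Yap1 and Cad1 list members, and the 3 members of each other list with the largest difference. The members, lists and rules were chosen with earlier results of these data known. Genes outside the rule, such as those in full lists of calls, were named after their values were seen. Alternatives were centring, each array as a replicate, a replicate block, 1 dye only, robust variance, a stricter threshold, the median of probes, other pairings and arrays left out. Chosen after seeing the data were the glycolysis list, the sum with the untreated ratio, agreement with each parent pair, parent arrays left out of the other comparisons, and leaving out repeated ratios. No promoter was searched for binding sites. Gene coordinates were not used here, since the files name no genome build.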

Additional observations from a re-analysis of the deposited data

Results flagged for a closer look

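In the 4 parent arrays, 4 of 97 named genes had 1 array far from the other 3, about as many as chance gives, which is 1 in 20 groups. These were YBL029W at 1.23, MET22 at 1.35, YCF1 at 0.246 and HXK1 at -1.28. In 47 named genes the difference between the 2 strains passed its own test, CAD1 among them, whose ratio in the deletion strain is not that of a transcript. Those higher in cad1Δ cells beyond 2-fold were SPS1 (2.38), CAD1 (1.70), FRM2 (1.4), ENO1 (1.28), ENO2 (1.2), TDH1 (1.19), DYN1 (1.18), PRM1 (1.13), SCW10 (1.12), ABP140 (1.08), PFF1 (1.06) and TDH3 (1.05). Below 2-fold were MHT1 (0.98), MET3 (0.91), HXK1 (0.89), MET22 (0.85), HXT6 (0.84), YDJ1 (0.78), HXT3 (0.77), SST2 (0.74), GTT2 (0.73), FES1 (0.72), YCF1 (0.70), FET3 (0.70), DDR2 (0.69) and SIS1 (0.66).

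Those lower beyond 2-fold were FUI1 (-2.15), ZNF1 (-1.93), PCK1 (-1.82), MNL1 (-1.77), ERG29 (-1.70), CGR1 (-1.63), GAL7 (-1.61), HAB1 (-1.51), GNP1 (-1.47), YBL029W (-1.4), SPG1 (-1.38), UTP6 (-1.37), HXT2 (-1.36) and MAK16 (-1.18). Below 2-fold were STE18 (-0.99), CLN3 (-0.79), PHO89 (-0.79), PHO84 (-0.77), GPX1 (-0.74), GSY1 (-0.71) and TRX2 (-0.70).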

How the results depend on the processing

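The 237 calls in the difference became 34 with each array a replicate (12 higher, 22 lower), 23 and 7 with only arrays of treated RNA in Cy5 or in Cy3, 52 with an unadjusted p under 0.001 and 2-fold, and 23 with 2-fold against each parent pair. Leaving out 1 cad1Δ or parent array gave 0 to 686. In the same order untreated cad1Δ against parent (150) became 74, 288, 28 and 24, and 1 to 755 with 1 untreated or parent array left out. cad1Δ minus yap1Δ (488) became 306, 261, 199 and 246, and 106 to 926 with 1 cad1Δ, yap1Δ or parent array left out. The cad1Δ response (3804) became 1517 under the stricter threshold and 3057 to 3956 with 1 cad1Δ or parent array left out. The 42 genes with no overlap and 2-fold became 27 without parent pair 1 and 98 without pair 2. With array number as a replicate block the counts were 455, 768 and 843 in the difference, the untreated comparison and cad1Δ minus yap1Δ. The numbers follow the dyes and share only a number, so they pair no samples across groups. With centred arrays the difference had 240 calls (84 higher, 156 lower), with a dye term on 6 arrays 159 (82 higher, 77 lower), and the share of higher calls also moved in Cy5 arrays (13 of 23). Among named genes that were called, HXT6 (-0.19, against 1.88 without replicate 2) and DDR2 (-0.21 against 1.59) reversed without cad1 replicate 1, and DYN1 (-0.28, against 2.63 without replicate 1) and TRX2 (0.022 against -1.42) without replicate 2. The causes were not tested. Of 17 alternatives SPS1 and CAD1 were called in 16, FUI1 in 15, ZNF1, PCK1 and CGR1 in 14, FRM2, MNL1 and SPG1 in 13, and DYN1 in 7.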
